A study of Mus musculus with 12 samples.

Results

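Macrophages and other leukocytes of the embryonic pancreas were followed here through 36 genes that mark them, from the pan-leukocyte surface protein Ptprc (CD45) to the macrophage receptors Csf1r, Mrc1 and Lyve1. The genes were chosen by name with earlier results of these data known, so their counts beside the background below are descriptions only. All 62 probe sets whose only gene symbol in the platform annotation was one of the 36 were used. They were part of 45037 probe sets tested for 18204 named genes. Of the 36 genes, 21 were read by 1 probe set and 15 by several. The study profiled whole pancreata of mouse embryos at embryonic days (E) 14.5 and 16.5 on Affymetrix MOE430 2.0 arrays, 1 pancreas per array, with 2 wildtype and 4 β-catenin KO pancreata at each day. The question was how the transcriptome of the gland differs once β-catenin, through which canonical Wnt signals reach the nucleus, is deleted.

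The KO embryos carried a Pdx1-cre transgene and lost both floxed β-catenin alleles in the pancreas, and all embryos came from timed matings of mice heterozygous for the transgene and the floxed allele. Whether the wildtype embryos carried the transgene or a floxed allele, and the strain and sex of the embryos, are not stated in the sources used here. The Pdx1 promoter drives Cre in the pancreatic epithelium, whereas the RNA came from the whole organ with its mesenchyme, vessels and blood cells. The arrays are named by genotype, a number and a letter. At E14.5 these are WT_522B, WT_522C, KO_540C, KO_540G, KO_615A and KO_615B, and at E16.5 they are WT_622A, WT_628G, KO_541J, KO_541L, KO_591C and KO_591D. Values are listed in this order throughout. What the number stands for is not stated.

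Each value is the ratio of a pancreas to the mean of the 2 wildtype pancreata of its day on the same probe set, so that the 2 wildtype values of a day average 1. Ratios compare pancreata and carry no abundance, so whether a transcript was detected at all, and how much more of one there was than of another, cannot be read from them. In whole organs, fewer cells of a type and less RNA per cell cannot be told apart.

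Macrophages are the first immune cells to settle in embryonic organs, from yolk sac and later from fetal liver precursors. Their identity rests on the transcription factor PU.1, encoded by Spi1, and on signals through the receptor encoded by Csf1r, whose ligands are Csf1 and interleukin 34. In growing organs they clear dying cells by means of scavenger receptors, Fc receptors and the complement component C1q, break proteins down in lysosomes and are often placed along vessels and ducts.

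The 3 probe sets of Ctnnb1, the targeted gene, did not pass the limma test at either day (adjusted p from 0.838 to 0.920 at E14.5 and from 0.152 to 0.896 at E16.5). At E14.5 their KO ratios ran from 0.701 to 1.31 and at E16.5 from 0.620 to 1.05. Which of them lie between the loxP sites was not determined here. Pancreata KO_540G and KO_591D stood apart from the other KO pancreata of their day, with median log2 ratios over all probe sets of 0.09 and 0.06 and weights of 0.282 and 0.422 when limma estimated the weight of each array, against 0.898 to 1.67 for the other 6 KO arrays.

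At E14.5 the macrophage and leukocyte genes were higher in the KO in nearly all cases, mostly by small amounts. The largest log2 fold changes were 1.47 for Lyve1 and 1.34 for H2-Aa. Not 1 of the 62 probe sets passed the limma test at an adjusted p under 0.05. With 1 probe set per gene, 33 of 36 genes had a log2 fold change above 0, against 53.0% of all genes, and their median was 0.25, against 0.01 over all genes. All 4 KO pancreata lay above both wildtype pancreata on 28 of the 62 probe sets, for 19 genes, and below both on 0, where the background over all probe sets was 8.17% above and 8.06% below. At an unadjusted p under 0.05, 13 of the 62 were higher in the KO and 0 were lower, against a background of 2.34% of all probe sets for the higher direction and 4.52% for the lower. Over the whole array limma with Benjamini-Hochberg adjustment called 0.00222% of probe sets as rising and 0.00888% as falling at this day, so that hardly any gene of any kind passed. The methods' t-test, run here over all 45037 probe sets without the fold filter that the methods placed before it, also called 0 of the 62 after the same adjustment.

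At E16.5 probe sets of 3 members rose in the KO, Ctss, Csf1r and H2-Aa, and that of C1qa fell. The background of limma calls at this day was 0.802% of all probe sets for rises and 1.82% for falls. Of the 36 genes 28 had a log2 fold change above 0, against 57.5% of all genes, with a median of 0.15 and an all-gene median of 0.03. When the probe sets of a gene were averaged in place of choosing 1 by name, the median at E16.5 was 0.29. All 4 KO pancreata lay above both wildtype pancreata on 15 of the 62 probe sets, for 12 genes, and below both on 2, beside a background of 14.5% above and 11.1% below. At an unadjusted p under 0.05, 16 were higher and 2 lower in the KO, against a background of 8.48% for the higher direction and 8.16% for the lower. The genes higher at both days numbered 26 of 36, against 33.3% of all genes, and on 10 of the 62 probe sets all 4 KO pancreata lay above both wildtype pancreata at both days, against 1.86% of all probe sets. Across the 36 genes the log2 fold changes of the 2 days had a Pearson r of 0.639, and across all 18204 genes 0.306. These are correlations across genes, which are not independent replicates, and each day has its own wildtype and KO pancreata.

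**Figure D1:**
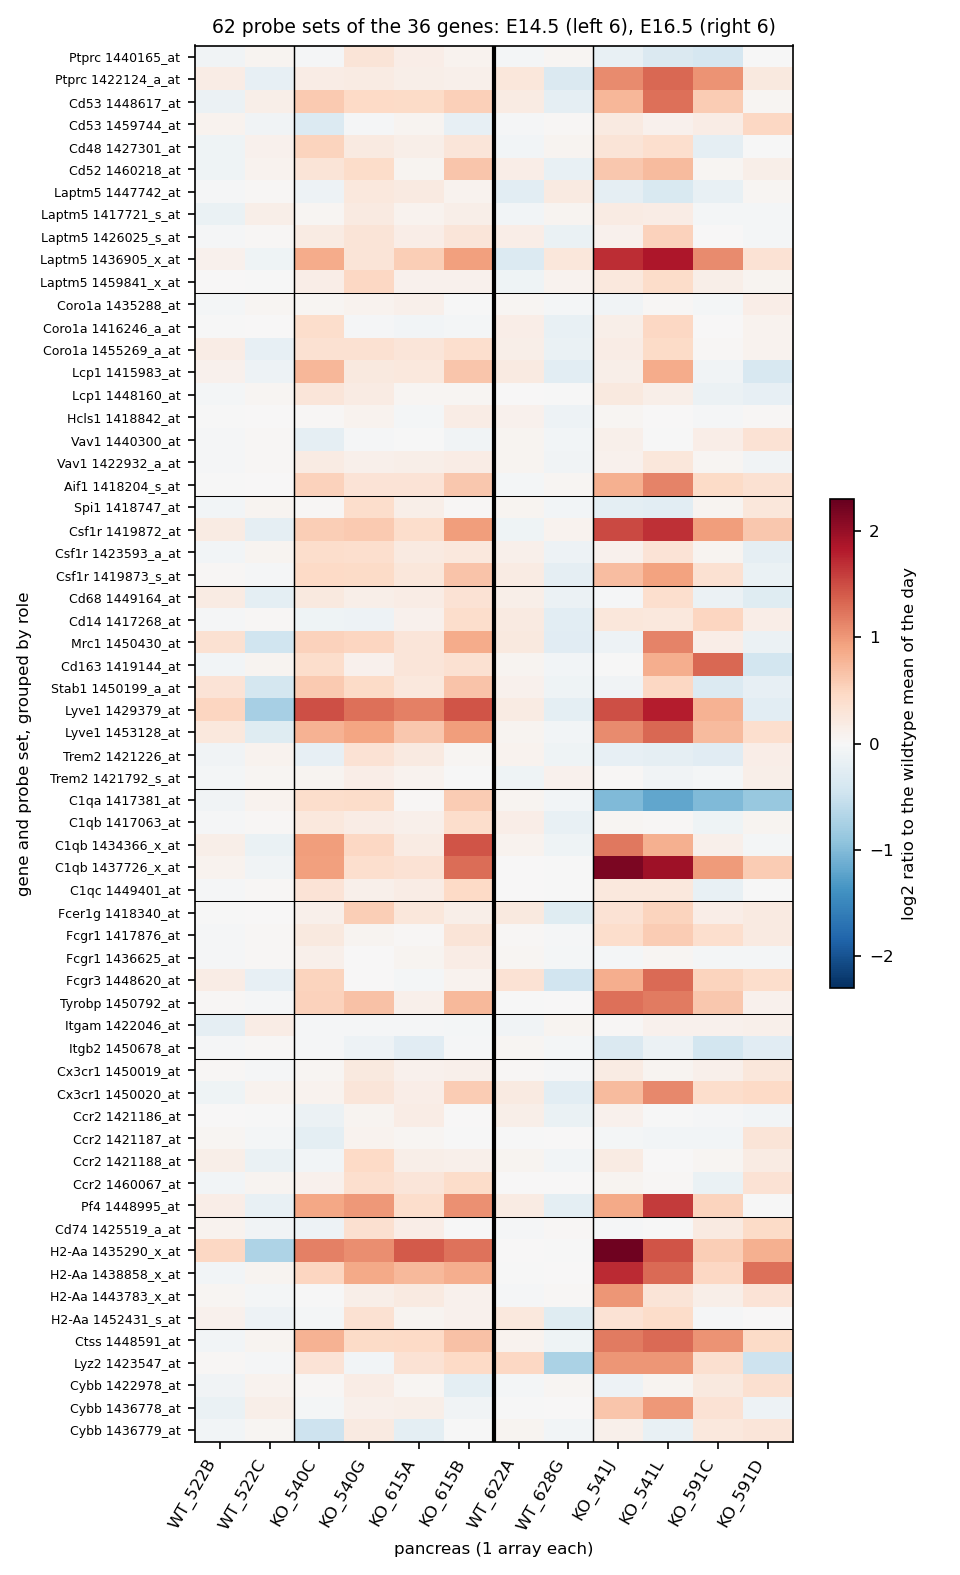
Log2 ratio to the wildtype mean of the day (colour) for the 62 probe sets of the 36 genes (rows, grouped by role) in the 12 pancreata (columns, E14.5 left and E16.5 right, wildtype first within each day). The E14.5 KO columns are pale red in most rows, KO_541J and KO_541L hold the darkest reds, and C1qa is blue in all 4 KO pancreata at E16.5, at ratios from 0.439 to 0.547.

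**Figure D2:**
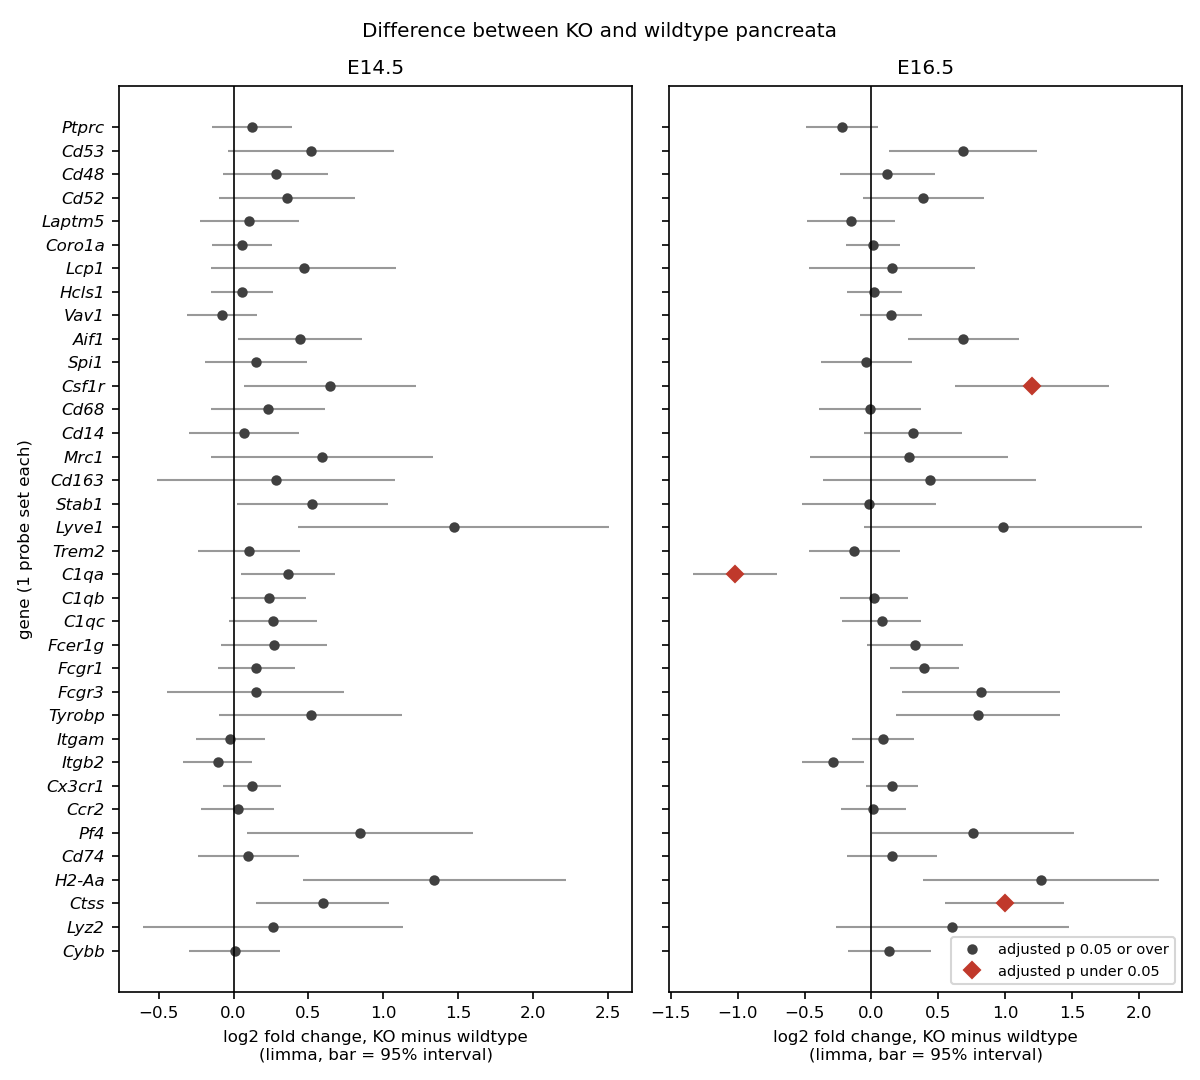
Log2 fold change between KO and wildtype pancreata with its 95% interval from limma (x axis) for the 36 genes with 1 probe set each (y axis) at E14.5 and E16.5. Red diamonds have an adjusted p under 0.05: at E16.5 Csf1r at 1.20, Ctss at 0.99 and C1qa at -1.02, while at E14.5 there is none and 33 of 36 points lie to the right of 0.

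The pan-leukocyte surface proteins gave the broadest reading of leukocytes as a whole. Ptprc encodes CD45, a surface phosphatase of leukocytes, and its 2 probe sets differed. On 1422124_a_at it was at 1.20 and 0.798 in the wildtype and 2.12, 2.50, 2.03 and 1.17 in the KO at E16.5 (log2 fold change 0.94 with an SE of 0.26, limma adjusted p = 0.0771), so that KO_541J, KO_541L and KO_591C stood above both wildtype pancreata and KO_591D lay between them. On 1440165_at the same pancreata gave 0.892, 0.797, 0.769 and 0.988 (log2 fold change -0.22, limma adjusted p = 0.414), and at E14.5 the log2 fold changes of the pair were 0.16 and 0.12. Cd53, a tetraspanin of leukocytes, was at 0.907 and 1.09 in the wildtype and 1.52, 1.37, 1.36 and 1.46 in the KO at E14.5 on 1448617_at (log2 fold change 0.52 with an SE of 0.25, limma adjusted p = 0.745), where all 4 KO pancreata lay above both wildtype pancreata. At E16.5 this probe set was at 1.14 and 0.862 in the wildtype and 1.71, 2.42, 1.50 and 1.03 in the KO (log2 fold change 0.68 with an SE of 0.25, limma adjusted p = 0.191), and KO_591D lay within the wildtype range. The second Cd53 probe set, 1459744_at, had log2 fold changes of -0.12 and 0.24.

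Cd52, a short glycoprotein of lymphocytes and monocytes, differed between KO and wildtype by a log2 fold change of 0.35 on the earlier day and 0.39 on the later, and Cd48, a ligand of the SLAM family, by 0.28 and 0.12. Neither gene passed the limma test at either day (adjusted p from 0.396 to 0.815 for Cd52 and from 0.810 to 0.812 for Cd48). The lysosomal membrane protein gene Laptm5 had 5 probe sets. On 1436905_x_at it was at 0.804 and 1.20 in the wildtype and 3.23, 3.63, 2.12 and 1.26 in the KO at E16.5 (log2 fold change 1.27 with an SE of 0.35, limma adjusted p = 0.0858), all 4 KO pancreata being above the wildtype, while the other 4 probe sets had log2 fold changes from -0.15 to 0.22. At E14.5 the 5 probe sets of Laptm5 ran from 0.10 to 0.67.

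Among the genes of the leukocyte cytoskeleton and signalling, Aif1 differed from the wildtype by the most at E16.5. It encodes IBA1, an actin-binding protein used as a macrophage marker. Aif1 was at 0.995 and 1.0 in the wildtype and 1.44, 1.25, 1.24 and 1.54 in the KO at E14.5 (log2 fold change 0.45 with an SE of 0.19, limma adjusted p = 0.691) and at 0.966 and 1.03 in the wildtype and 1.76, 2.20, 1.36 and 1.27 in the KO at E16.5 (log2 fold change 0.68 with an SE of 0.19, limma adjusted p = 0.0830). The groups did not overlap at either day, with KO_615B and KO_541L highest. Lcp1, the actin bundler L-plastin, stood at log2 fold changes of 0.47 on 1415983_at and 0.14 on 1448160_at at E14.5, where all 4 KO pancreata were above both wildtype pancreata on each probe set, and 0.15 and 0.01 at E16.5, where the groups overlapped. Coro1a, which encodes the actin regulator coronin 1A, ran from 0.06 to 0.35 over its 3 probe sets at E14.5 and from 0.01 to 0.19 at E16.5. Vav1, a signalling protein of blood cells, had -0.08 and 0.15 at E14.5 and 0.15 and 0.08 at E16.5. Hcls1, a substrate of leukocyte tyrosine kinases, had log2 fold changes of 0.06 and 0.02. None of these 4 genes passed the limma test at either day (adjusted p at least 0.564 at E16.5).

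The receptor and the transcription factor that define the macrophage lineage gave different readings. Csf1r, the receptor for colony stimulating factor 1, was at 1.14 and 0.861 in the wildtype and 1.48, 1.52, 1.32 and 1.95 in the KO at E14.5 on 1419872_at (log2 fold change 0.64 with an SE of 0.26, limma adjusted p = 0.677). At E16.5 it was at 0.937 and 1.06 in the wildtype and 2.87, 3.20, 1.94 and 1.54 in the KO, a KO mean of 2.39 ± 0.776 (SD, n = 4), which passed the test (log2 fold change 1.20 with an SE of 0.26, limma adjusted p = 0.0383, 95% interval 0.62 to 1.77). All 4 KO pancreata were above both wildtype pancreata at both days, and KO_591D was the lowest of the 4 at E16.5. Its other 2 probe sets did not pass. At E16.5, 1419873_s_at was at 1.63, 1.90, 1.28 and 0.897 in the KO (log2 fold change 0.47, limma adjusted p = 0.369) and 1423593_a_at at 1.07, 1.25, 1.04 and 0.867 (log2 fold change 0.07, limma adjusted p = 0.872), although at E14.5 all 3 probe sets had the 4 KO pancreata above the wildtype. Spi1, which encodes PU.1, was at 0.959 and 1.04 in the wildtype and 1.01, 1.33, 1.10 and 1.02 in the KO at E14.5 (log2 fold change 0.15, limma adjusted p = 0.933) and at 1.04 and 0.959 in the wildtype and 0.852, 0.843, 1.04 and 1.20 in the KO at E16.5 (log2 fold change -0.04, limma adjusted p = 0.949), with overlapping groups at both days.

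PU.1 binds a purine-rich element around the core GGAA, and the promoters of the members were searched for GAGGAA and for the longer GAGGAAGT, which contains it, on both strands. RefSeq promoter sequences of build GRCm38.p6, 250 bases before to 50 after a start, were at hand for 27 of the 36 genes, with 31 promoters in all. GAGGAA stood in 18 of the 31 (58.1%), for 17 genes, and in 28.3% of all 32851 promoters. GAGGAAGT stood in 5 of the 31 (16.1%), those of C1qc, Cd53, Ctss, Pf4 and Vav1, and in 3.20% of all promoters. A match describes the letters and is not a binding site. The stretches below lie before the start of the gene and are written along the gene from 5′ to 3′, with the motif or its reverse complement in capitals. They are shown for Ctss, which rose at E16.5, for 2 of the C1q chains, whose probe sets parted at that day, and for Pf4 and Vav1, which hold the longer motif just before the start. The Ctss stretch holds GAGGAA and not the longer match of its promoter. No promoter was at hand for C1qa or Csf1r.
Ctss promoter, chr3:95526586-95526663, plus strand: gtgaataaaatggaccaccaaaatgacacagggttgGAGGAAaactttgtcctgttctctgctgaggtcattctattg
C1qb promoter, chr4:136886201-136886266, minus strand: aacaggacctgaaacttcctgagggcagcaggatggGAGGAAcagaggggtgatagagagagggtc
C1qc promoter, chr4:136893066-136893145, minus strand: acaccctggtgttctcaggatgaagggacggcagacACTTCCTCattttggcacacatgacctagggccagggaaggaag
Pf4 promoter, chr5:90772389-90772434, plus strand: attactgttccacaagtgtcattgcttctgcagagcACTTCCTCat
Vav1 promoter, chr17:57279053-57279099, plus strand: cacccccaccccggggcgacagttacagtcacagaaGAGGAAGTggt
In the Ctss stretch the motif ends 158 bases before the start, and in that of C1qb 24 bases before it. Those of Pf4 and Vav1 end 2 and 3 bases before it, and that of C1qc ends 187 bases before it.

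Of the phagocyte and scavenger receptors, Lyve1 had the largest difference of all 36 genes at E14.5. It encodes a hyaluronan receptor that is carried by a class of tissue macrophages and also by lymphatic endothelium. On 1429379_at Lyve1 was at 1.42 and 0.586 in the wildtype and 2.78, 2.39, 2.24 and 2.72 in the KO at E14.5 (log2 fold change 1.47 with an SE of 0.47, limma adjusted p = 0.590) and at 1.14 and 0.857 in the wildtype and 2.81, 3.51, 1.75 and 0.850 in the KO at E16.5 (log2 fold change 0.98 with an SE of 0.47, limma adjusted p = 0.333). The 4 KO pancreata were all above the wildtype at E14.5, although WT_522B and WT_522C lay far from each other, whereas at E16.5 KO_591D lay just below both wildtype pancreata. The second probe set, 1453128_at, was at 1.18 and 0.824 in the wildtype and 1.73, 1.87, 1.54 and 1.96 in the KO (log2 fold change 0.84 with an SE of 0.23, limma adjusted p = 0.521) and 1.04 and 0.959 in the wildtype and 2.11, 2.51, 1.65 and 1.30 in the KO (log2 fold change 0.88 with an SE of 0.23, limma adjusted p = 0.0673), with all 4 KO pancreata above the wildtype at both days.

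Mrc1, the mannose receptor, was at 1.27 and 0.729 in the wildtype and 1.45, 1.41, 1.22 and 1.80 in the KO at E14.5 (log2 fold change 0.59 with an SE of 0.34, limma adjusted p = 0.805) and at 1.16 and 0.838 in the wildtype and 0.923, 2.22, 1.11 and 0.906 in the KO at E16.5 (log2 fold change 0.28, limma adjusted p = 0.777), when KO_541L alone exceeded the wildtype range. Stab1, the scavenger receptor stabilin 1, was at 1.24 and 0.760 in the wildtype and 1.52, 1.36, 1.18 and 1.57 in the KO at E14.5 (log2 fold change 0.53, limma adjusted p = 0.706), and its log2 fold change was -0.02 at E16.5. Cd163, the receptor for haemoglobin bound to haptoglobin, was at 0.957 and 1.04 in the wildtype and 1.33, 1.07, 1.21 and 1.28 in the KO at E14.5 and at 1.04 and 0.956 in the wildtype and 0.990, 1.79, 2.51 and 0.745 in the KO at E16.5 (log2 fold change 0.43, limma adjusted p = 0.641). Its KO pancreata spread more widely at E16.5 than at E14.5, from 0.745 in KO_591D to 2.51 in KO_591C. Cd68, a lysosomal glycoprotein of macrophages, had log2 fold changes of 0.23 and -0.01, and Cd14, a co-receptor for bacterial lipopolysaccharide, 0.07 and 0.31. Trem2, a lipid-sensing receptor, had 0.10 and 0.07 on its 2 probe sets at E14.5 and -0.13 and 0.01 at E16.5. In this group 7 of 7 genes had a log2 fold change above 0 at E14.5 and 4 of 7 at E16.5, and 0 passed the limma test at either day (unadjusted p under 0.05 in 2 genes on the earlier day and in 0 on the later).

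The C1q chains parted from each other at E16.5. C1q, which opens the classical complement pathway and tags dying cells, is built of A, B and C chains encoded by C1qa, C1qb and C1qc, neighbours on chromosome 4 in the gene order of GRCm38.p6. C1qa was at 1.05 and 0.952 in the wildtype and 0.497, 0.439, 0.494 and 0.547 in the KO at E16.5, a KO mean of 0.494 ± 0.0440 (SD, n = 4), and fell (log2 fold change -1.02 with an SE of 0.14, limma adjusted p = 0.00532, 95% interval -1.34 to -0.70). The 4 KO pancreata lay close together and all below the wildtype. At E14.5 the same probe set was at 0.943 and 1.06 in the wildtype and 1.32, 1.34, 1.02 and 1.50 in the KO (log2 fold change 0.36 with an SE of 0.14, limma adjusted p = 0.677), 3 of the 4 KO pancreata being above the wildtype range. The change in the KO effect between the days, E16.5 minus E14.5, was -1.38 (SE 0.20, limma adjusted p = 0.0196), the single call for the difference between days among the 62 probe sets, where 0.0755% of all probe sets were called upwards and 0.273% downwards.

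C1qc was at 1.0 and 1.0 in the wildtype and 1.19, 1.18, 0.885 and 1.0 in the KO at E16.5 (log2 fold change 0.08, limma adjusted p = 0.862) and C1qb on 1417063_at at 1.12 and 0.884 in the wildtype and 1.03, 1.02, 0.937 and 1.04 in the KO (log2 fold change 0.02, limma adjusted p = 0.969), so that neither was below its wildtype by a margin that passed the test. The other 2 C1qb probe sets were higher in the KO. On 1437726_x_at it was at 1.01 and 0.988 in the wildtype and 4.47, 3.84, 1.98 and 1.50 in the KO (log2 fold change 1.42 with an SE of 0.40, limma adjusted p = 0.0879), with all 4 KO pancreata above the wildtype, and on 1434366_x_at at 1.06 and 0.938 in the wildtype and 2.32, 1.75, 1.09 and 0.964 in the KO (log2 fold change 0.53, limma adjusted p = 0.552). At E14.5 each of these probe sets of C1qb and C1qc had its 4 KO pancreata above the wildtype, with log2 fold changes from 0.24 to 0.78, and KO_615B was the highest on each. C1qa was read by a single probe set, so that no second one could be set beside it. Its call at E16.5 was lost after quantile normalization (limma adjusted p = 0.0893), by the methods' t-test adjusted over all probe sets without their fold filter (adjusted p = 0.180) and with only KO_591C and KO_591D set against the wildtype (limma adjusted p = 0.0578).

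**Figure D3:**
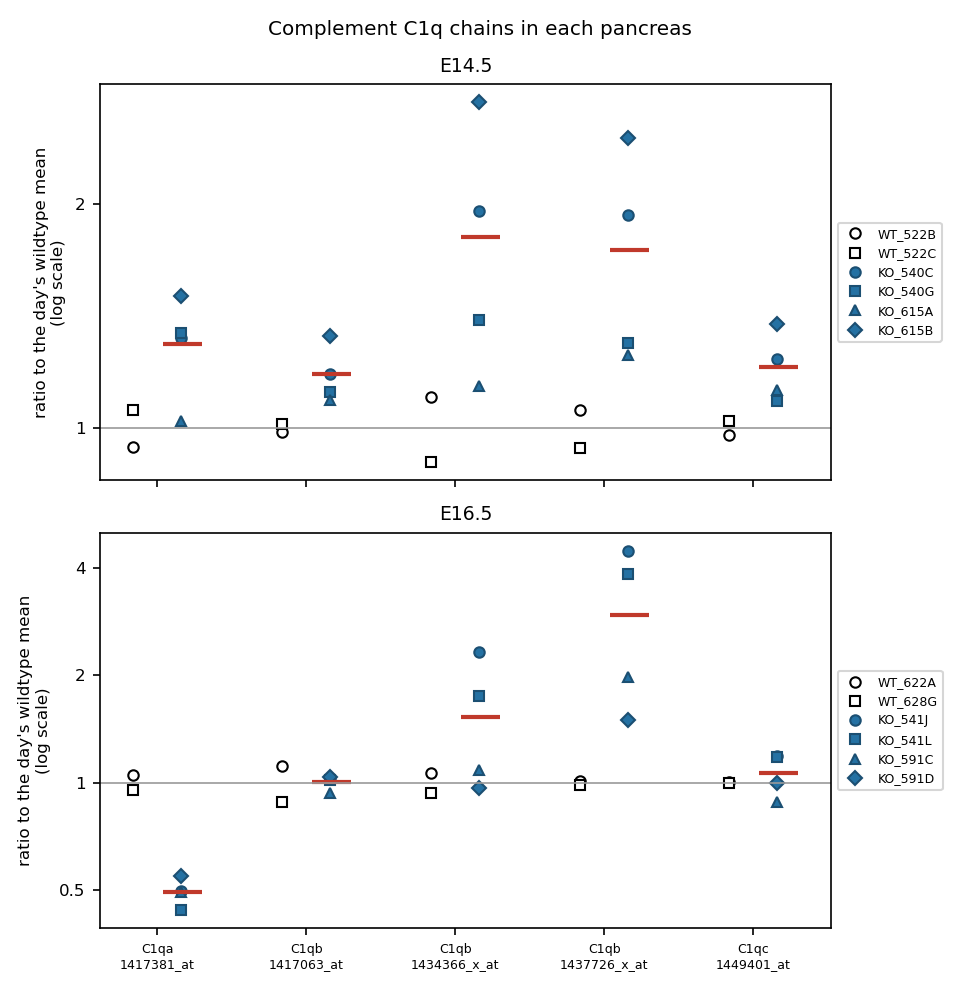
Ratio to the wildtype mean of the day on a log scale (y axis) for the 5 probe sets of the C1q chains (x axis) in each pancreas at E14.5 and E16.5, with open symbols for wildtype, filled for KO and a red bar for the KO mean. At E16.5 the 4 KO values of C1qa lie between 0.439 and 0.547, whereas those of C1qb 1437726_x_at lie between 1.50 and 4.47 and those of C1qc between 0.885 and 1.19.

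The Fc receptors and their adaptors were higher at E16.5 than in the wildtype in 4 of 4 genes, and 0 of them passed the limma test, with 3 at an unadjusted p under 0.05. Tyrobp encodes DAP12, the adaptor through which Trem2 and related receptors signal. It was at 1.02 and 0.979 in the wildtype and 1.44, 1.59, 1.08 and 1.68 in the KO at E14.5 (log2 fold change 0.52 with an SE of 0.28, limma adjusted p = 0.786) and at 0.994 and 1.01 in the wildtype and 2.41, 2.29, 1.54 and 1.07 in the KO at E16.5 (log2 fold change 0.80 with an SE of 0.28, limma adjusted p = 0.168), above both wildtype pancreata in all 4 KO pancreata at both days. Fcgr3, a low affinity receptor for immunoglobulin G, was at 1.13 and 0.873 in the wildtype and 1.42, 1.01, 0.969 and 1.05 in the KO at E14.5 and at 1.26 and 0.739 in the wildtype and 1.79, 2.46, 1.43 and 1.32 in the KO at E16.5 (log2 fold change 0.82 with an SE of 0.27, limma adjusted p = 0.142). The wildtype pair of Fcgr3 lay far apart at E16.5 and the 4 KO pancreata were still above both. Fcgr1, the high affinity receptor, was at 1.02 and 0.979 in the wildtype and 1.33, 1.51, 1.30 and 1.15 in the KO at E16.5 (log2 fold change 0.39 with an SE of 0.12, limma adjusted p = 0.104) on 1417876_at, again with no overlap, and had a log2 fold change of -0.02 on 1436625_at. Fcer1g, the common γ chain that Fc receptors signal through, had log2 fold changes of 0.27 and 0.33 (limma adjusted p = 0.828 and 0.355).

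The leukocyte integrins did not share the higher values. Itgb2, the integrin β2 chain of leukocytes, was at 1.03 and 0.967 in the wildtype and 0.795, 0.910, 0.742 and 0.839 in the KO at E16.5 (log2 fold change -0.29 with an SE of 0.11, limma adjusted p = 0.189), all 4 KO pancreata being below the wildtype, and its log2 fold change at E14.5 was -0.11. Itgam, the αM chain that pairs with it in complement receptor 3, had log2 fold changes of -0.02 and 0.09.

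Chemokine receptors separated by probe set. Cx3cr1, the fractalkine receptor of tissue macrophages, was at 1.16 and 0.841 in the wildtype and 1.66, 2.16, 1.32 and 1.37 in the KO at E16.5 on 1450020_at (log2 fold change 0.69 with an SE of 0.21, limma adjusted p = 0.110) and at 1.01 and 0.986 in the wildtype and 1.13, 1.04, 1.08 and 1.19 in the KO on 1450019_at (log2 fold change 0.15, limma adjusted p = 0.450). All 4 KO pancreata were above the wildtype on both. Ccr2, the receptor that brings monocytes out of the blood, had log2 fold changes from 0.01 to 0.11 over its 4 probe sets at E16.5 and from -0.02 to 0.30 at E14.5. Pf4, platelet factor 4, is made by megakaryocytes and also by fetal macrophages. It was at 1.12 and 0.884 in the wildtype and 1.86, 1.99, 1.32 and 2.08 in the KO at E14.5 (log2 fold change 0.85 with an SE of 0.35, limma adjusted p = 0.677) and at 1.14 and 0.857 in the wildtype and 1.82, 3.04, 1.42 and 1.0 in the KO at E16.5 (log2 fold change 0.76 with an SE of 0.35, limma adjusted p = 0.299), and the groups overlapped only at E16.5, through KO_591D.

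Of the genes of antigen presentation, H2-Aa, the α chain of the MHC class II molecule I-A, was among the members with the largest differences at both days. On 1438858_x_at it was at 0.956 and 1.04 in the wildtype and 1.42, 1.82, 1.69 and 1.78 in the KO at E14.5 (log2 fold change 0.74 with an SE of 0.25, limma adjusted p = 0.613) and at 0.995 and 1.0 in the wildtype and 3.29, 2.46, 1.40 and 2.41 in the KO at E16.5, a KO mean of 2.39 ± 0.777 (SD, n = 4), and rose on that day (log2 fold change 1.19 with an SE of 0.25, limma adjusted p = 0.0322, 95% interval 0.64 to 1.74). On 1435290_x_at the values were 1.39 and 0.609 in the wildtype and 2.22, 2.10, 2.67 and 2.37 in the KO at E14.5 (log2 fold change 1.34 with an SE of 0.40, limma adjusted p = 0.556) and 1.0 and 1.0 in the wildtype and 4.69, 2.74, 1.49 and 1.75 in the KO at E16.5 (log2 fold change 1.27 with an SE of 0.40, limma adjusted p = 0.127). On both probe sets the 4 KO pancreata were above the wildtype at both days. For the other 2 probe sets of H2-Aa the fold changes on the log2 scale were 0.11 and 0.12 at E14.5 and 0.44 and 0.21 at E16.5. Probe sets with names ending in _x_at can hybridise with transcripts of related genes, and those of H2-Aa with the 3 highest log2 fold changes at E16.5 are of this kind. Cd74, the invariant chain that class II molecules are assembled with, had log2 fold changes of 0.10 and 0.15 (limma adjusted p = 0.965 and 0.714).

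Lysosomal and oxidase genes included the third rise. Ctss, the lysosomal protease cathepsin S of antigen-presenting cells, was at 0.961 and 1.04 in the wildtype and 1.75, 1.35, 1.38 and 1.59 in the KO at E14.5 (log2 fold change 0.59 with an SE of 0.20, limma adjusted p = 0.621) and at 1.06 and 0.936 in the wildtype and 2.29, 2.46, 2.05 and 1.35 in the KO at E16.5, a KO mean of 2.04 ± 0.486 (SD, n = 4), and rose on that day (log2 fold change 0.99 with an SE of 0.20, limma adjusted p = 0.0293, 95% interval 0.55 to 1.44). The groups did not overlap at either day. Lyz2, the lysozyme of macrophages and granulocytes, was at 1.40 and 0.604 in the wildtype and 2.02, 2.02, 1.29 and 0.719 in the KO at E16.5 (log2 fold change 0.60, limma adjusted p = 0.517), with the wildtype pair itself far apart and KO_591D between its members. Cybb, the catalytic chain of the phagocyte NADPH oxidase, had log2 fold changes from 0.12 to 0.46 over 3 probe sets at E16.5 and from -0.12 to 0.04 at E14.5.

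**Figure D4:**
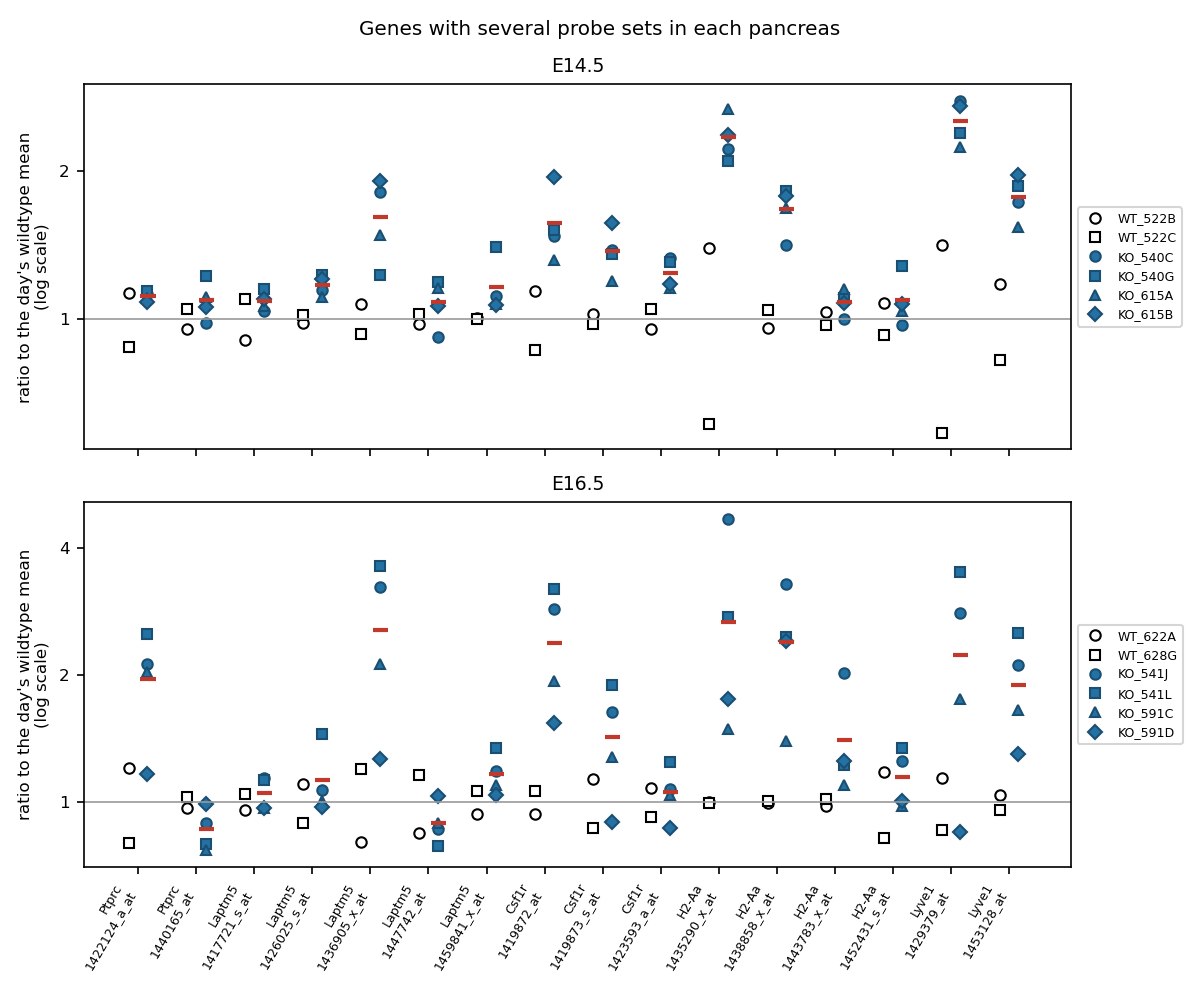
Ratio to the wildtype mean of the day on a log scale (y axis) for every probe set of Ptprc, Laptm5, Csf1r, H2-Aa and Lyve1 (x axis) in each pancreas, with open symbols for wildtype, filled for KO and a red bar for the KO mean. At E16.5 Laptm5 1436905_x_at reaches 3.63 in KO_541L while Laptm5 1447742_at is at 0.788 in the same pancreas, and Csf1r 1419872_at reaches 3.20 beside 1.25 on 1423593_a_at.

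Probe sets of the same gene therefore did not give the same answer. Of the 15 members with several probe sets, 5 had a range of over 1 between their log2 fold changes at E16.5, Ptprc, Laptm5, Csf1r, C1qb and H2-Aa. The median range over the 15 was 0.413, beside 0.285 over all 9011 genes with several probe sets. In Csf1r and H2-Aa a single probe set carried the call. The other probe sets of Csf1r differed from the wildtype by less, whereas H2-Aa on 1435290_x_at differed by slightly more with a larger SE.

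The 3 rises called at E16.5 depended on which pancreata entered. The fall of C1qa was called with any 1 array left out, narrowly so without WT_622A (limma adjusted p = 0.0495), but not under every other setting. Without KO_591D 15 of the 62 probe sets were called among 2862 of all, 14 rising and C1qa falling, and the rises then took in Ptprc, Cd53, Laptm5, Aif1, Lyve1, C1qb, Fcgr1, Tyrobp and Cybb. Without KO_541J, without KO_541L, without WT_622A or without WT_628G the single call was C1qa, and the same was found when E14.5 pancreas WT_522B or WT_522C, which only contribute to the shared estimate of the spread, was left out. Without KO_591C the calls were C1qa and H2-Aa. Of the E14.5 KO pancreata, leaving out KO_540C ended the call of Csf1r and leaving out KO_615B that of H2-Aa. With trended and robust variances, or with E16.5 fitted on its own 6 arrays, C1qa alone was called, and after quantile normalization 0 were called, as by the methods' t-test over all probe sets without their fold filter, where the limma fit with no such change had 18 of the 62 at an unadjusted p under 0.05. Weighting the arrays gave 10 calls, 9 of them rises.

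The KO pancreata of E16.5 were not alike. With only KO_541J and KO_541L set against the wildtype 19 of the 62 probe sets were called by limma, 18 as rises, among 3151 of all probe sets. With only KO_591C and KO_591D 0 were called, among 188 of all. Each of these fits has 2 KO and 2 wildtype pancreata at E16.5. Both KO_541J and KO_541L were above both KO_591C and KO_591D in 19 of the 36 genes, against 16.7% of all genes. KO_541L was the highest of the 4 on 30 of the 62 probe sets, where it was highest on 20.6% of all probe sets, and KO_591D the lowest on 28, where it was lowest on 24.3% of all. KO_591D was also the highest on 17 of the 62, where it was highest on 44.3% of all. At E14.5 KO_615B was the highest on 24 and KO_615A the lowest on 25 of the 62, beside 15.8% and 20.5% of all probe sets. The wildtype pancreata differed too, WT_622A exceeding WT_628G in 27 of 36 genes by a median log2 difference of 0.13, while the median over all genes was 0.02.

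Lists of other cell types were read beside the members, pancreas by pancreas. The median log2 ratio over the 36 genes was 0.27, 0.23, 0.16 and 0.34 in the KO pancreata of E14.5 and 0.13, 0.38, 0.13 and 0.08 in those of E16.5. In the same order 10 mesenchyme markers had medians of 0.44, 0.46, 0.18 and 0.39 and then 0.75, 1.30, 0.30 and 0.24. For 9 acinar markers these were -0.48, -0.45, 0.42 and -1.59 and then -1.34, -1.94, -1.12 and -0.74. Among the KO pancreata KO_615A had the lowest medians of its day for the members and the mesenchyme markers and the highest for the acinar markers. KO_541L had the highest of its day for the first 2 lists and the lowest for the third. The part of these other cell types in the values of the 36 genes was not tested.

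**Figure D5:**
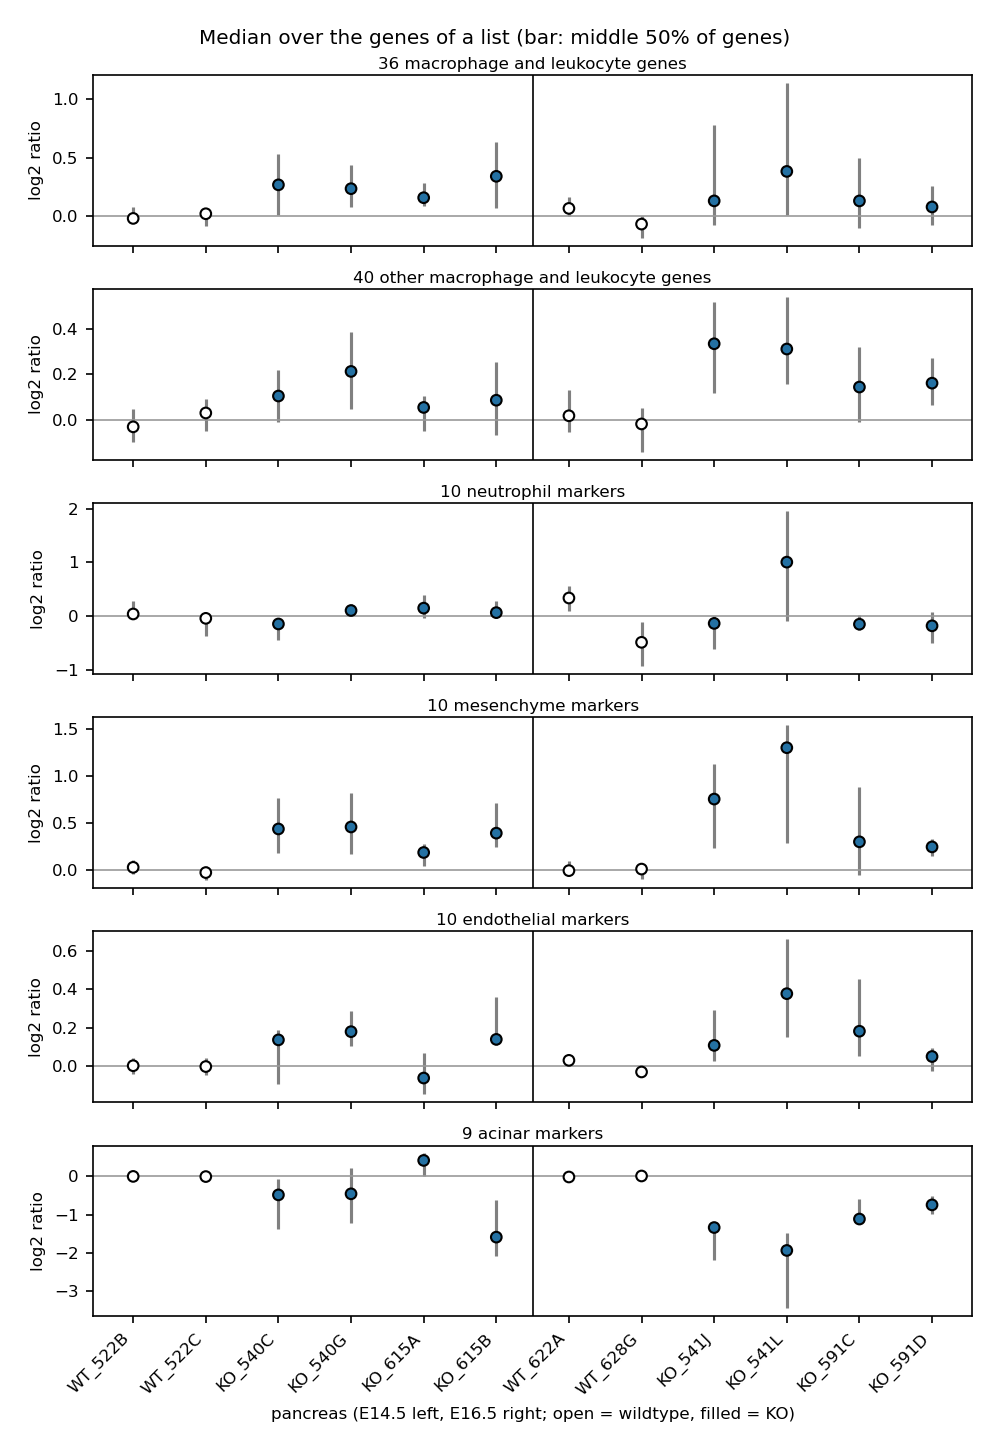
Median log2 ratio to the wildtype mean of the day (y axis, bar for the middle 50% of genes) over 6 gene lists in each pancreas (x axis, open points for wildtype, filled for KO). KO_541L has the highest median of the E16.5 KO pancreata for the members at 0.38 and for the mesenchyme markers at 1.30, and the lowest for the acinar markers at -1.94.

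Other macrophage and leukocyte genes, a list of 44 of which 40 had a probe set, followed the members in sign at E16.5. There 35 of 40 were higher in the KO, with a median log2 fold change of 0.26 beside 0.03 over all genes, and at E14.5 29 of 40 were, with a median of 0.13. On 1 probe set per gene, 1 of the 40 rose at E16.5 and 0 fell, and 0 passed at E14.5. Ms4a6c, a membrane protein of myeloid cells, was at 1.15 and 0.855 in the wildtype and 2.31, 2.96, 1.62 and 1.56 in the KO (log2 fold change 1.04 with an SE of 0.23, limma adjusted p = 0.0418) at E16.5 and rose. Fcgr2b, the inhibitory Fc receptor, rose on a probe set other than the one chosen by name, 1435477_s_at, at 1.08 and 0.916 in the wildtype and 1.32, 1.82, 1.57 and 1.35 in the KO (log2 fold change 0.59 with an SE of 0.14, limma adjusted p = 0.0443). Adgre1, which encodes the macrophage antigen F4/80, had log2 fold changes of 0.18 and 0.24, and Mpeg1, a pore-forming protein of macrophages, 0.25 and 0.48, and neither passed the test. Of the other MHC class II genes, H2-Ab1, the β chain that pairs with H2-Aa, rose on 1450648_s_at, at 1.0 and 1.0 in the wildtype and 1.37, 1.58, 1.28 and 1.46 in the KO (log2 fold change 0.51 with an SE of 0.10, limma adjusted p = 0.0298), while on 1451721_a_at it had a log2 fold change of -0.24. H2-Eb1, a second class II β chain, had 0.02 and 0.53.

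Of 9 macrophage growth factors and chemoattractants 0 passed the limma test at either day. At E16.5, 1 was higher in the KO at an unadjusted p under 0.05 and 0 were lower. The log2 fold changes of the 9 ran from -0.04 to 0.28 at E14.5 and from -0.12 to 1.11 at E16.5. The log2 fold change of Csf1 was 0.28 at the earlier day and -0.06 at the later, and that of Il34 was 0.08 and 0.03. Over all 9 genes the medians were 0.08 and 0.03.

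Markers of other blood cells were read beside the members, since several members are shared by many leukocytes. On 1 probe set per gene 0 of 8 T cell, 0 of 7 B cell, 0 of 6 NK cell, 0 of 10 neutrophil, 0 of 9 mast cell, 0 of 6 megakaryocyte and 0 of 7 erythroid markers passed the limma test at either day. At an unadjusted p under 0.05, 3 mast cell markers and 1 erythroid one were higher in the KO at E14.5, and 1 erythroid one was lower. At E16.5, 2 B cell markers were higher and 1 erythroid one was lower. Of all probe sets 2.34% were higher and 4.52% lower at this cut on the earlier day, and 8.48% and 8.16% on the later. For the later day the list medians of the log2 fold change were 0.00 for T cell, 0.24 for B cell, 0.11 for NK cell, 0.15 for neutrophil, 0.17 for mast cell, 0.17 for megakaryocyte and -0.04 for erythroid markers. For the T cell receptor chains Cd3e and Cd3d the log2 fold changes were 0.05 and 0.00 on the earlier day, then -0.17 and 0.00 on the later. The B cell receptor chain Cd79a had 0.08 and -0.06 and was the lowest of its list at E16.5. Of the 7 B cell markers 3 were higher in the KO at E14.5 and 6 at E16.5, against 53.0% and 57.5% of all genes. The NK cell receptor Ncr1 had 0.08 and 0.17. The megakaryocyte genes Itga2b and Gp1bb had -0.09 and 0.05 at E14.5 and 0.24 and 0.33 at E16.5. Among erythroid genes, Hba-a1 had 0.08 and 0.12 and Alas2 0.55 and -0.53.

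Neutrophil markers varied between single pancreata, while the mast cell gene Cpa3 was above both wildtype pancreata in all 4 KO pancreata at E14.5. S100a8, a calcium-binding protein of neutrophils, was at 1.60 and 0.398 in the wildtype and at 0.592, 6.04, 0.886 and 0.496 in the KO at E16.5, and S100a9, its partner, at 1.61 and 0.393 and at 0.482, 3.62, 0.677 and 0.507. KO_541L was far above the others in both. Over the 10 neutrophil markers its median log2 ratio was 1.0, beside -0.18 to -0.14 in the other 3 KO pancreata and 0.34 and -0.49 in the wildtype pair. Cpa3, the carboxypeptidase of mast cells, was at 1.22 and 0.782 in the wildtype and at 5.97, 7.75, 5.42 and 5.05 in the KO at E14.5 (log2 fold change 2.61 with an SE of 0.40, limma adjusted p = 0.102), and at 1.02 and 0.983 and at 1.82, 3.62, 1.44 and 0.948 at E16.5. Kit, a receptor of mast cells and other progenitors, had log2 fold changes of 0.09 and -0.08.

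The 10 endothelial markers had median log2 fold changes of 0.10 and 0.14 and 0 passed the limma test. The KO was higher for 7 of the 10 on the earlier day and for 9 on the later, with largest values of 0.34 and 0.64. An unadjusted p under 0.05 was reached by 0 and then 2 markers. Those 2 were higher, as were 8.48% of all probe sets at this cut on that day. Pecam1, the lowest of the list on the earlier day, had -0.10 and 0.14. Cdh5, also lower on the earlier day, had -0.07 and 0.05. Since Lyve1 and Stab1 are also carried by lymphatic or sinusoidal endothelium, lymphatic markers were read beside them. Podoplanin (Pdpn) had log2 fold changes of 0.55 and 0.81 and Flt4 of 0.07 and 0.01. The 5 lymphatic markers ran from -0.04 to 0.77 at E14.5 and from -0.37 to 1.32 at E16.5. The top value of each day was that of a marker other than these 2. Of the 5, 0 passed the limma test at either day. With an unadjusted p under 0.05, 1 was higher at E14.5, and 2 were higher and 1 lower at E16.5. The array-wide shares at this cut were 2.34% higher and 4.52% lower at E14.5, and 8.48% and 8.16% at E16.5. Whether the Lyve1 signal came from macrophages or from lymphatic vessels was not tested. In the mesenchyme list the matrix genes Lum and Col3a1 rose at E16.5 on the chosen probe set, and Col1a2 and Dcn on another, with log2 fold changes of 1.51, 1.06, 0.84 and 1.54 (limma adjusted p = 0.016, 0.0488, 0.0304 and 0.043), while Col1a1 had 0.66 and 0.43. In the acinar list Cel, a lipase, Rbpjl, a transcription factor of acinar cells, and Gp2, a zymogen granule protein, fell at E16.5 with log2 fold changes of -2.97, -1.14 and -1.06 (limma adjusted p = 0.0422, 0.015 and 0.00768), and Cpa1 had -0.53 and -0.98. Of the epithelial markers 0 of 8 passed, but nearly all lay lower in the KO. Just 1 of the 8 was higher on each day, where the share over all genes was 53.0% and then 57.5%. The list medians of the log2 fold change were -0.19 for the earlier day and -0.49 for the later. Those with an unadjusted p under 0.05, 2 and then 3, were all lower, beside array-wide shares of 4.52% and 8.16%. Pdx1 had 0.31, the single positive value of the earlier day, and -0.33. Cdh1 had -0.59 and -1.47, the latter the lowest of its day.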

How the data were processed

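Total RNA of each pancreas was amplified in repeated rounds, labelled and hybridised to 1 Affymetrix MOE430 2.0 array. Per the methods, the authors summarised the arrays by RMA (robust multi-array average) and divided every probe set by the average of the same day's wildtype arrays. The deposited values are linear ratios, from 0.01 to 26.4, and on each probe set the wildtype pair of a day adds up to 2 to within 3e-07. The division removed abundance, so no filter on dim probe sets was applied. The number of arrays limits the precision.

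Of 45101 probe sets 64 controls were set aside. The platform annotation gave 34957 of the rest 1 symbol, 920 several and 9160 none, and only those with 1 symbol were named. Fits of the log2 ratios used limma 3.58.1 (R 4.3.3) with 4 group means and 8 residual degrees of freedom. KO was tested against wildtype within each day and for the difference between days with Benjamini-Hochberg adjustment over 45037 probe sets at 0.05. Called means an adjusted p under 0.05. Scripts were tested on simulated data. All members were reported, and of the other lists those genes that were called in any comparison plus the first 2 of each list. A gene with several probe sets was represented by the one whose name ends plainly in _at, then _a_at, then _s_at or _x_at, and then by the lowest number. Alternatives covered the variance model, each day alone, quantile normalization, median centring, array weights, the name number as a random block (statmod 1.5.0), the methods' t-test (run over all probe sets, whereas the methods first kept those past fold limits), dropping _x_at and _s_at probe sets, averaging a gene's probe sets, a floor of 0.1 on the ratios and leaving out each array. The comparison by name number was added after seeing the data. The members and lists were chosen with earlier results of these data known. Separate litters are not stated, so pancreata that share a number may not be independent. The p-values set the difference between KO and wildtype against the spread among these pancreata alone. List genes without a probe set of their own symbol were not analysed here.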

Additional observations from a re-analysis of the deposited data

Results flagged for a closer look

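Among the 62 probe sets, each examined in the 4 KO pancreata of each day (124 groups of 4), 5 groups held a pancreas far from the other 3 by Dixon's test, where chance flags about 1 group in 20. At E14.5 these were Laptm5 on 1459841_x_at, at 1.4 in KO_540G, and Coro1a on 1416246_a_at, at 1.32 in KO_540C. At E16.5 they were Trem2 on 1421226_at, at 1.11 in KO_591D, Fcgr1 on 1436625_at, at 1.03 in KO_541L, and Ccr2 on 1421187_at, at 1.22 in KO_591D. Of the 5, 3 lay in KO_540G or KO_591D, which also stood apart over all probe sets.

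C1qa differed between the days by a test of the difference itself. The KO effect at E16.5 minus that at E14.5 was -1.38 on the log2 scale (limma adjusted p = 0.0196), the KO being below the wildtype in 4 of 4 pancreata at E16.5 and above the wildtype range in 3 of 4 at E14.5.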

How the results depend on the processing

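The median log2 fold change of the 36 genes stayed above 0 under every alternative run, from 0.20 to 0.26 at E14.5 and from 0.08 to 0.29 at E16.5, the highest at E16.5 (0.29, against 0.15) coming from averaging all probe sets of each gene. No member probe set was called at E14.5 under any alternative. At E16.5 the 4 calls became 1 with trended and robust variances, 1 with each day on its own 6 arrays, 0 after quantile normalization, 2 after median centring, 10 with array weights, 0 by the methods' t-test over all probe sets without their fold filter, 19 with KO_541J and KO_541L as the only KO pancreata and 0 with KO_591C and KO_591D. Leaving out 1 array at a time gave 1 to 15 calls. The call for the difference between days, that of C1qa, was lost with trended and robust variances (0 calls) and after quantile normalization (0 calls), and leaving out 1 array at a time gave 0 to 1 calls, with 0 without WT_522B, WT_522C, WT_622A or KO_541J.

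The fall of C1qa at E16.5 was called under 20 of 23 alternatives. The rises of Ctss, Csf1r and H2-Aa were called under 10 of 23, 9 of 23 and 10 of 22. Each of the 4 kept its direction under all of these alternatives. Leaving out or weighting arrays could not have turned it, since each KO ratio of that day was past those of the 2 wildtype arrays. Variance settings and E14.5 omissions leave the E16.5 log2 fold change as it is, at 1.20 for Csf1r and -1.02 for C1qa. Most alternatives share nearly all of their arrays, so the tallies do not count independent tests. Why a call was lost was not tested. No paired analysis was possible because wildtype and KO arrays share no number. With 2 wildtype pancreata per day, the wildtype mean and spread rest on few animals, and amplified RNA and RMA ratios carry no measure of detection.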
